A study of Flaveria robusta and Flaveria sonorensis and Flaveria ramosissima with 24 samples.

Results

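The leaf transcriptome of Flaveria ramosissima was set against that of Flaveria trinervia in control air, gene by gene. Both are species of a small genus of the daisy family, and they stand at different stages between C3 and C4 photosynthesis. F. ramosissima is a C3-C4 intermediate and F. trinervia is a C4 species. The genes compared were those with a TPM above 0 in at least 1 control library of each species and a mean TPM of at least 1 in F. ramosissima, in F. trinervia or in both. TPM is a transcript abundance corrected for gene length and scaled to the total of a library. By this rule 13936 of the 29562 rows of the deposited table were kept.

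The study holds leaf RNA-seq of 4 Flaveria species, each with 3 control and 3 low CO2 libraries, 24 libraries in all. F. ramosissima control and F. trinervia control, with 3 libraries each, are the groups of the comparison. The 3 F. ramosissima low CO2 and the 3 F. trinervia low CO2 libraries gave the same contrast in other samples, and the controls of F. sonorensis (C3-C4) and F. robusta (C3) gave the levels of further species. The labels set the controls to a CO2 value of 380 and the low CO2 plants, kept so for 2 weeks, to 100. Both are written in µmol m-2 s-1, a unit of light flux, and the labels do not say how it is to be read for CO2. All plants had light of 200 µmol m-2 s-1, a 16 h day and an 8 h night, 22 °C and 70% humidity, and RNA came from mature, newly expanded leaves. The labels give neither plant age nor whether replicates are separate plants, so the p-values measure only the spread between these libraries.

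In a C4 leaf, CO2 is first fixed in the mesophyll by phosphoenolpyruvate carboxylase, and the resulting C4 acid is carried to the bundle sheath. There it is decarboxylated and the CO2 released is fixed again by Rubisco. The enzymes and carriers of this cycle are among the most abundant leaf proteins of C4 plants. C3-C4 intermediates recapture photorespiratory CO2 by releasing it from glycine in the bundle sheath, and F. ramosissima is known to run a partial C4 cycle beside this. The table names its rows by number only, with no gene symbol, so none of the genes below can be assigned to these pathways, no marker gene could be looked up for the leaf label, and no gene or protein sequence can be shown. Genes are therefore described by their levels, and only 4 are given by their row number.

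The rows left out were counted first, since they differ between the species. In F. ramosissima 8139 rows were detected that were at 0 in all 3 F. trinervia controls, against 1979 rows the other way round. Rows at 0 in the other species held 14.8%, 15.3% and 14.8% of all TPM in the F. ramosissima libraries, against 3.95%, 4.24% and 4.26% in the F. trinervia libraries. Each species is measured here on its own set of rows, so these shares are given with no test. A further 2999 rows were at 0 in both species, and 2509 were detected in both but reached a mean TPM of 1 in neither. At the limit itself, the lowest member had a larger group mean of exactly 1 TPM and the highest row left out had 0.997 TPM.

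The members made up 84.9% ± 0.260 of TPM in F. ramosissima and 95.7% ± 0.171 in F. trinervia (SD, n = 3 each). Their median TPM was 4.61, 5.07 and 4.56 in the F. ramosissima libraries, against 8.73, 8.74 and 7.63 in the F. trinervia libraries. A TPM of 10 or more was reached by 4409 to 4763 members in F. ramosissima libraries and by 6047 to 6500 in F. trinervia libraries. The typical member thus had a lower deposited TPM in F. ramosissima, and the groups did not overlap in either measure (two-sided exact permutation p = 0.1 for both, the smallest that 3 libraries against 3 allow). The same libraries chose the members, 785 through F. ramosissima only and 2110 through F. trinervia only, and the p-values carry that choice. Among the 11041 members at 1 TPM or more in both species the median log2 difference, F. ramosissima over F. trinervia, was -0.65 in deposited TPM. The share of TPM in the 100 most abundant genes was the same size in both species, 47.5% ± 2.74 in F. ramosissima and 47.5% ± 2.63 in F. trinervia (SD, n = 3 each, exact permutation p = 1).

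**Figure D1:**
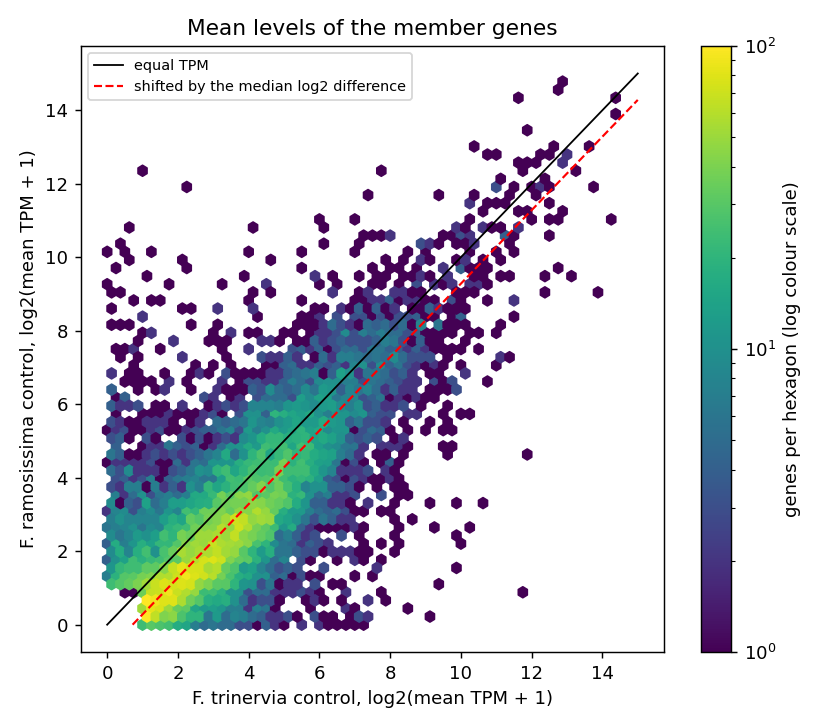
Mean level of each of the 13936 member genes, as log2(mean TPM + 1), in F. ramosissima control (vertical axis) against F. trinervia control (horizontal axis), 3 libraries each. Colour gives the number of genes per hexagon on a log scale, the solid line marks equal TPM, and the dashed line is shifted by the median log2 difference of -0.72. Most genes lie under the solid line, and a few lie along either axis, abundant in one species and near 0 in the other. The empty lower left corner is set by the rule that chose the genes.

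Among the members, 10240 (73.5%) differed between the species by limma on log2(TPM + 1) at a Benjamini-Hochberg adjusted p below 0.05. F. ramosissima was higher for 2408 of them (17.3% of members) and lower for 7832 (56.2% of members). The difference was at least 2-fold on this scale for 1568 higher and 5435 lower genes, at least 4-fold for 657 and 1546, and at least 16-fold for 175 and 164. Some of these genes reached a mean of 1 TPM only in the species where they were higher, which fixes their direction. Among the 11041 members that averaged 1 TPM or more in both species, 1755 were called higher and 5952 lower, with 78 and 89 of them at least 16-fold. Lower genes thus outnumbered higher ones there as well. Libraries of the species did not overlap for 76.0% of members. RNA came from whole leaves, so fewer cells of a type and less RNA per cell cannot be told apart. Nor can a change in transcript level be told apart from differences in the reference sequences to which reads of each species were assigned.

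The balance of higher and lower genes depended on how libraries were scaled. The median log2 difference of all members, F. ramosissima over F. trinervia, was -0.72 in deposited TPM, and median-of-ratios scaling, which sets the typical gene equal between libraries, brought it to -0.02. The scaling factors were 0.695 to 0.780 in F. ramosissima and 1.26 to 1.43 in F. trinervia. After this scaling 8863 members were called (63.6%), 4522 higher (32.4%) and 4341 lower (31.1%) in F. ramosissima. F. ramosissima was thus higher for 23.5% of calls in deposited TPM and for 51.0% after scaling. Among the members at 1 TPM or more in both species, 3784 were then called higher and 2963 lower, with 130 and 40 of them at least 16-fold. Genes called in the same direction under both scalings numbered 6747, of which 2406 were higher and 4341 lower. Another 46 genes were called under both in opposite directions. Of the 3447 calls found in deposited TPM alone, 3445 were lower in F. ramosissima, and all 2070 calls found after scaling alone were higher.

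The size of the differences was wide. In deposited TPM the middle 50% of members lay between log2 differences of -1.39 and 0.15, and 5% lay below -2.62 and 5% above 1.92. For the 11041 members at 1 TPM or more in both species the median was -0.65 in deposited TPM and 0.10 after scaling. The other 785 and 2110 members reached that level in F. ramosissima only or in F. trinervia only. The direction of these is fixed by how they were set apart, and it is not read as a result.

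The balance also differed between groups of mean TPM. These groups include the 785 and 2110 members that reached 1 TPM in F. ramosissima only or in F. trinervia only. The direction of those in deposited TPM is fixed by how they were set apart, so the shares are partly set by it. Among the 5478 members with a mean TPM under 5 over the 6 libraries, 14.2% were called higher and 57.1% lower in F. ramosissima. Among the 118 members with 1000 TPM or more, 31.4% were called higher and 44.9% lower. After median-of-ratios scaling the same groups had 24.8% higher and 31.8% lower genes, and 52.5% higher and 21.2% lower genes. So the larger side in the most abundant group was lower in deposited TPM and higher after scaling, whereas genes called higher made up a larger share in the most abundant group than in the least abundant group under both. The median log2 difference of the most abundant group was -0.26 in deposited TPM and 0.64 after scaling.

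**Figure D2:**
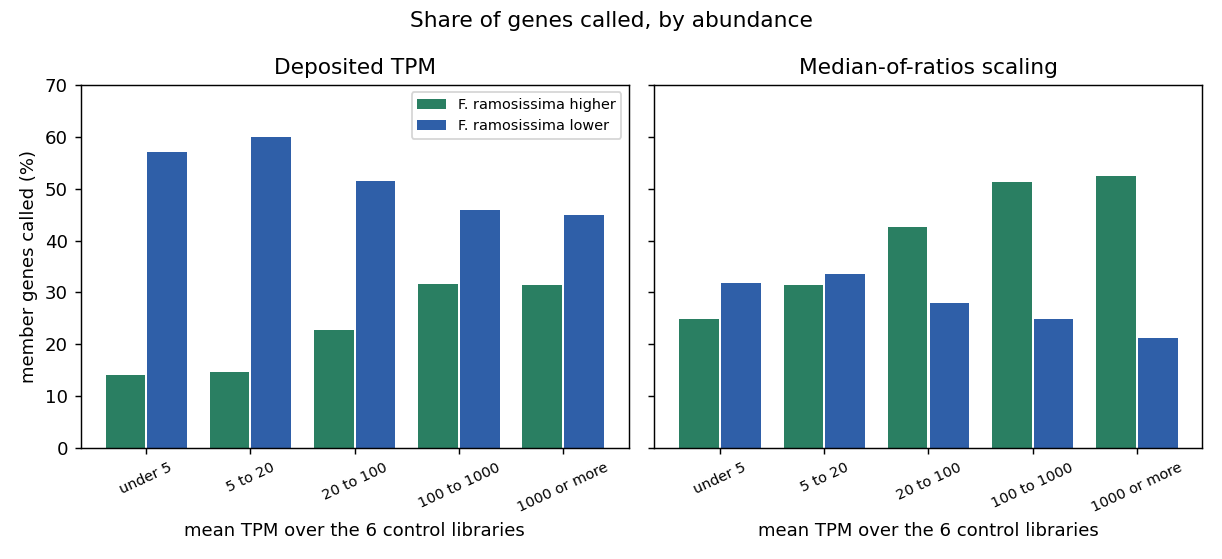
Percent of member genes called by limma as higher or lower in F. ramosissima control than in F. trinervia control, in 5 groups of mean TPM over the 6 control libraries, for deposited TPM (left) and median-of-ratios scaling (right). In deposited TPM lower genes are the larger share in each group, with 57.1% under 5 TPM and 44.9% at 1000 TPM or more. After scaling, higher genes are the larger share from 20 TPM upward, reaching 52.5%.

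Replicates of a species lay close together. Across the members, Pearson's r of log2(TPM + 1) between libraries was 0.965 to 0.977 within F. ramosissima, 0.968 to 0.985 within F. trinervia and 0.708 to 0.729 between the species. These are correlations across genes, which are not independent replicates. The median SD between replicates was 0.232 in F. ramosissima and 0.213 in F. trinervia on the log2(TPM + 1) scale. F. ramosissima had the larger SD for 54.6% of members, and in the 5 groups of mean TPM this share ran from 47.4% under 5 TPM to 65.1% at 100 to 1000 TPM, with 52.5% at 1000 TPM or more.

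Taken by transcript mass, members called higher in F. ramosissima held 42.8% ± 0.648 of all TPM in F. ramosissima and 13.6% ± 0.405 in F. trinervia, and members called lower held 20.4% ± 0.211 in F. ramosissima and 60.1% ± 0.239 in F. trinervia (SD, n = 3 each). Members not called held about the same share, 21.8% ± 0.245 in F. ramosissima and 22.0% ± 0.261 in F. trinervia. Since the calls chose these sets, the shares describe their weight only. The difference in TPM was carried by few genes, as was TPM itself, with 47.5% of it in the 100 most abundant genes of each species. Members with more TPM in F. ramosissima exceeded F. trinervia by 280213 TPM in sum, and the largest 35 of these 3957 genes made up 50% of that. The 9977 genes with less TPM in F. ramosissima had a summed difference of -388476 TPM, and 92 of them made up 50% of it. The 10 called genes with the largest positive differences together held 12.4%, 12.3% and 14.7% of all TPM in F. ramosissima libraries, against 3.15%, 2.35% and 3.09% in F. trinervia libraries. The 10 with the largest negative differences held 3.85%, 3.84% and 4.21% in F. ramosissima libraries, against 12.4%, 12.6% and 13.2% in F. trinervia libraries. That each list is larger in its own species follows from the choice. The values show how much of the transcript pool so few genes hold.

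Gene17659 had the largest positive difference in TPM. Its TPM was 26326, 23295 and 30925 in the F. ramosissima controls, against 8007, 5593 and 7972 in the F. trinervia controls. Each F. ramosissima library lay above each F. trinervia library, and the ratio of the means was 3.73. The log2 fold change was 1.91 (limma, SE 0.172, adjusted p = 4.14e-05), and 2.81 after median-of-ratios scaling. In F. sonorensis the gene was rare, with 80.7 ± 12.1 TPM (SD, n = 3), while F. robusta had 14063 ± 1493 TPM (SD, n = 3). Among the 4 control groups, F. ramosissima had the highest level and F. sonorensis stood far below the rest. For this gene and those below, levels of F. sonorensis and F. robusta are given in deposited TPM only. Nearness of levels between species can depend on the scaling.

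The next genes of this ranking behaved in different ways across the genus. The gene in the second place had 20772, 23523 and 31713 TPM in F. ramosissima, against 8629, 4971 and 6991 TPM in F. trinervia, a log2 fold change of 1.90 (limma, SE 0.227, adjusted p = 0.000163), and 2.80 after scaling. Its control means in F. sonorensis and F. robusta, 26223 and 19622 TPM, were of the size seen in F. ramosissima, so F. trinervia was the low species. The gene in the eighth place had 4649 to 5752 TPM in F. ramosissima, against 180 to 238 TPM in F. trinervia, a log2 fold change of 4.63 (limma, SE 0.155, adjusted p = 4.17e-07), and 5.53 after scaling. All controls of F. sonorensis and F. robusta were at 0 for it. Of the 10 genes, 6 differed at least 4-fold in deposited TPM. After scaling all 10 did and were called higher, with log2 fold changes of 2.42 to 12.08.

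Gene00137 had the largest negative difference. Its TPM was 3122, 2185 and 1427 in the F. ramosissima controls, against 17175, 21858 and 16818 in the F. trinervia controls. The groups did not overlap, and the mean of F. trinervia was 8.29 times that of F. ramosissima. The log2 fold change was -3.11 (limma, SE 0.265, adjusted p = 3.09e-05), and -2.21 after median-of-ratios scaling. F. sonorensis and F. robusta had far less, 137 ± 71.2 and 39.8 ± 10.9 TPM (SD, n = 3 each). The level of this gene therefore ran in the order F. robusta, F. sonorensis, F. ramosissima, F. trinervia, and F. ramosissima stood apart from both its neighbours in that order by far more than the spread between libraries.

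The gene ranked next below it showed an even wider gap. It had 601, 506 and 447 TPM in F. ramosissima, against 15901, 17329 and 13070 TPM in F. trinervia, a log2 fold change of -4.90 (limma, SE 0.160, adjusted p = 3.88e-07), and -3.997 after scaling. In deposited TPM the F. ramosissima level of this gene was close to that of F. sonorensis (mean 433 TPM) and above that of F. robusta (159 TPM). Only F. trinervia was high among the 4 control groups. The gene in the fourth place had 680 to 842 TPM in F. ramosissima, against 8000 to 9992 TPM in F. trinervia (log2 fold change -3.50, limma, SE 0.142, adjusted p = 9.35e-07, and -2.60 after scaling), and its mean was 0.597 TPM in F. sonorensis and listed at 0 in F. robusta. Not all of these abundant genes kept their call. The genes in the fifth and the tenth place were lower by less than 2-fold in F. ramosissima in deposited TPM (log2 fold changes of -0.62 and -0.63), and after scaling they stood at 0.28 and 0.27 and were no longer called (limma adjusted p = 0.288 and 0.390).

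The widest fold changes belonged to genes with a high TPM in one species and a TPM near 0 in the other. Gene00282 had the highest log2 fold change among genes that averaged 1 TPM or more in both species. Its TPM was 3354, 3379 and 4864 in the F. ramosissima controls, against 5.26, 5.03 and 0.47 in the F. trinervia controls. The ratio of the means was 1078, and the log2 fold change was 9.96 (limma, SE 0.523, adjusted p = 3.17e-06). It was 10.72 after median-of-ratios scaling and 9.28 without F. trinervia control replicate 3, the library with the lowest value. The gene was more abundant still in F. sonorensis and F. robusta, with 7587 ± 1551 and 19696 ± 2568 TPM (SD, n = 3 each). F. trinervia thus had almost no TPM on a row with high TPM in the other species. In deposited TPM each F. ramosissima library had less on this row than each library of F. sonorensis and F. robusta.

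Gene19303 was the counterpart in the other direction. Its TPM was 0.52, 0.30 and 10.5 in the F. ramosissima controls, against 956, 983 and 944 in the F. trinervia controls. The log2 fold change was -8.41 (limma, SE 0.735, adjusted p = 3.54e-05), with most of the spread from F. ramosissima control replicate 3. Without that library it was -9.42, and after median-of-ratios scaling -7.71. F. sonorensis had a level close to that of F. trinervia, 1023 ± 406 TPM (SD, n = 3), and in F. robusta the gene was listed at 0 in all 3 controls. Its high and low levels therefore did not separate the photosynthetic types, since the C3-C4 species lay on either side.

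The 10 highest and 10 lowest fold changes over all called members include genes under 1 TPM in the lower species, which were kept through the other species alone, so these lists are described with no test. The gene with the highest fold change had 4535, 5215 and 5887 TPM in F. ramosissima, against 0.76, 0.52 and 1.35 TPM in F. trinervia (log2 fold change 11.46). Its mean was 11464 TPM in F. robusta, and it was at 0 in the F. sonorensis controls. The gene ranked second had 1613, 1874 and 1533 TPM in F. ramosissima, against 0.45, 1.06 and 0.33 TPM in F. trinervia, and here F. sonorensis had a mean of 4049 TPM and F. robusta only 0.50 TPM. So the row of the first gene had a high TPM in F. ramosissima and F. robusta, and that of the second in F. ramosissima and F. sonorensis. At the other end, the first gene had 2.47, 0 and 0.24 TPM in F. ramosissima, against 3112, 3587 and 3833 TPM in F. trinervia (log2 fold change -11.07). Its mean was 0.13 TPM in F. robusta and 0 in F. sonorensis, so among the 4 control groups this row had a high TPM in F. trinervia alone. The 10 highest fold changes had F. ramosissima means of 654 to 5212 TPM, and the 10 lowest had F. trinervia means of 164 to 3888 TPM.

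**Figure D3:**
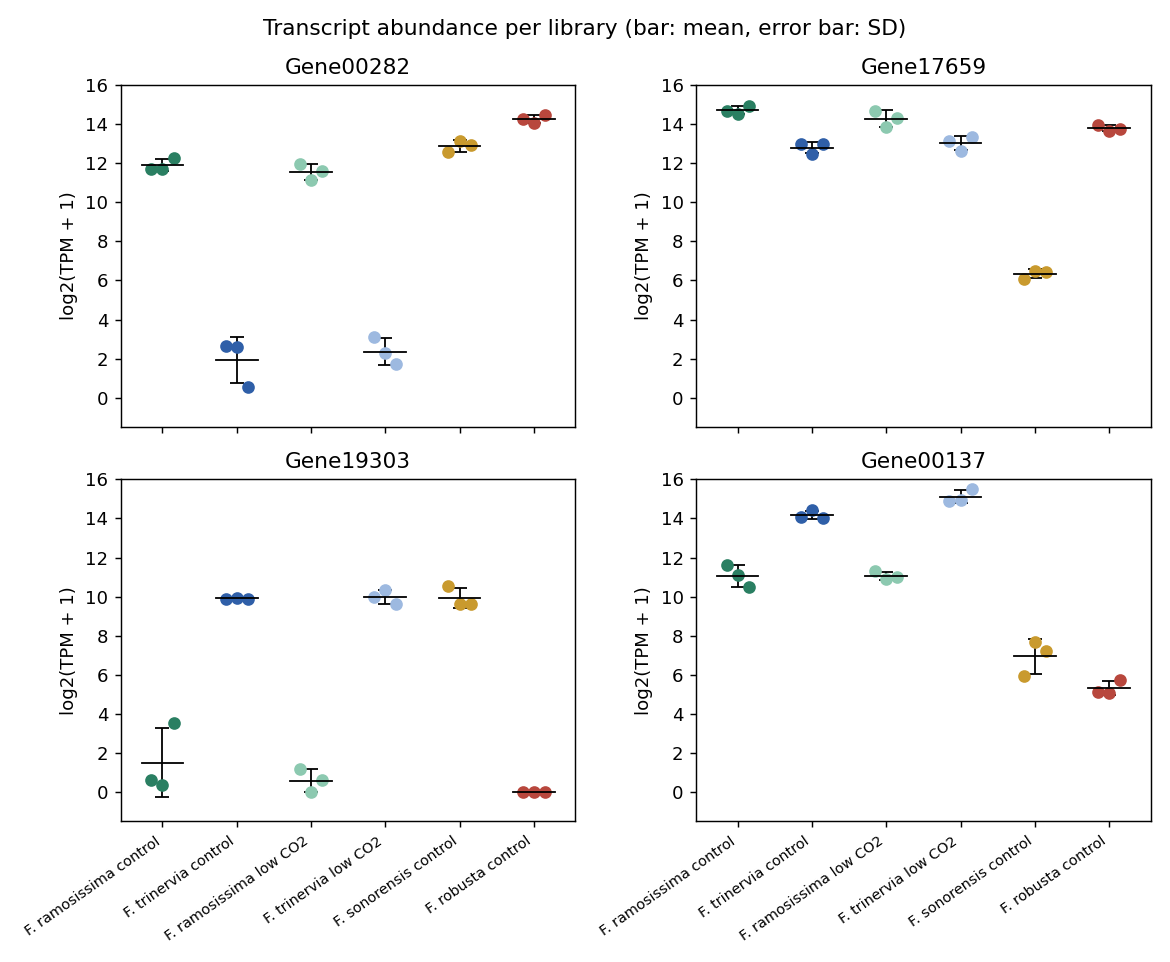
Transcript abundance, as log2(TPM + 1), of the 4 genes given by row number. Points are single libraries, the horizontal bar is the mean and the error bar the SD of 3 libraries, for F. ramosissima and F. trinervia at both CO2 settings and for the F. sonorensis and F. robusta controls. Gene00282 and Gene17659 are higher in F. ramosissima than in F. trinervia at both CO2 settings, and Gene19303 and Gene00137 are lower.

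Near-absence of this kind was then counted over all members. These genes were chosen after their values were seen, and the counts are a description. Rows undetected in all controls of one species are not members, so complete absence is left out of the counts. Rows undetected in F. trinervia with a mean of at least 1 TPM in F. ramosissima numbered 4128, against 679 the other way round. No count at 100 TPM was made for those rows, so the numbers below hold for members only. A mean of at least 100 TPM in F. ramosissima together with less than 1 TPM in F. trinervia was found for 30 genes, 3.34% of the 899 members at or above 100 TPM in F. ramosissima. The reverse was found for 21 genes, 2.03% of the 1032 members at that level in F. trinervia. Levels reached 5212 TPM among the 30 genes and 3511 TPM among the 21.

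Of the 30 genes below 1 TPM in F. trinervia, 15 had a mean of at least 1 TPM in F. robusta and 14 in F. sonorensis, while 8 were below 1 TPM in both. Of the 21 genes below 1 TPM in F. ramosissima, 9 reached 1 TPM in F. robusta, 12 in F. sonorensis, and 9 were below it in both. For comparison, 81.2% of all members reached 1 TPM in F. robusta, 80.7% in F. sonorensis, and 10.6% were below it in both. In the low CO2 libraries the near-absence held for most of these genes. The high level held less often in F. trinervia than in F. ramosissima. There 29 of the 30 genes were still below 1 TPM in F. trinervia and 29 were at 100 TPM or more in F. ramosissima, and 20 of the 21 were still below 1 TPM in F. ramosissima and 15 at 100 TPM or more in F. trinervia. Of all 13936 members, 1169 were below 1 TPM in F. trinervia at low CO2 and 2434 in F. ramosissima. At 100 TPM or more there were 925 in F. trinervia and 894 in F. ramosissima.

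The same contrast was next made in the low CO2 libraries, which share no library with the controls. Among these, F. trinervia replicate 2 stood somewhat apart, with a Pearson's r across members of 0.927 and 0.936 to its replicates, which had 0.977 to each other. The F. ramosissima low CO2 libraries had 0.974 to 0.990. At low CO2, 8684 of the 13936 members were called by limma (62.3%), 2279 higher (16.4%) and 6405 lower (46.0%) in F. ramosissima. Of the 2408 genes higher in control air, 1854 (77.0%) were called higher at low CO2 too and 12 were called lower. Of the 7832 genes lower in control air, 5876 (75.03%) were called lower again and 22 were called higher. Among members that differed by 4-fold or more in control air, 93.1% were called again in the same direction. After median-of-ratios scaling 59.8% of members were called at low CO2, and 81.1% of the higher and 74.7% of the lower genes were called again in their direction, where 31.1% of all members were called higher and 28.7% lower. The species difference in control air was thus found again for most genes in separate libraries, which were assigned to the same rows and carry the same differences in reference, if any.

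Across all members, the log2 differences of the controls and of the low CO2 libraries had a Pearson's r of 0.917 and a Spearman's rho of 0.872, a description across genes that share rows and reference. The 2408 higher genes had a median log2 difference of 1.29 in the controls and 1.33 in the low CO2 libraries. For the 7832 lower genes these medians were -1.30 and -1.10, and for all members -0.72 and -0.58. Without F. trinervia low CO2 replicate 2, 8989 members were called at low CO2, and 80.5% of the higher and 72.3% of the lower genes were called again.

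**Figure D4:**
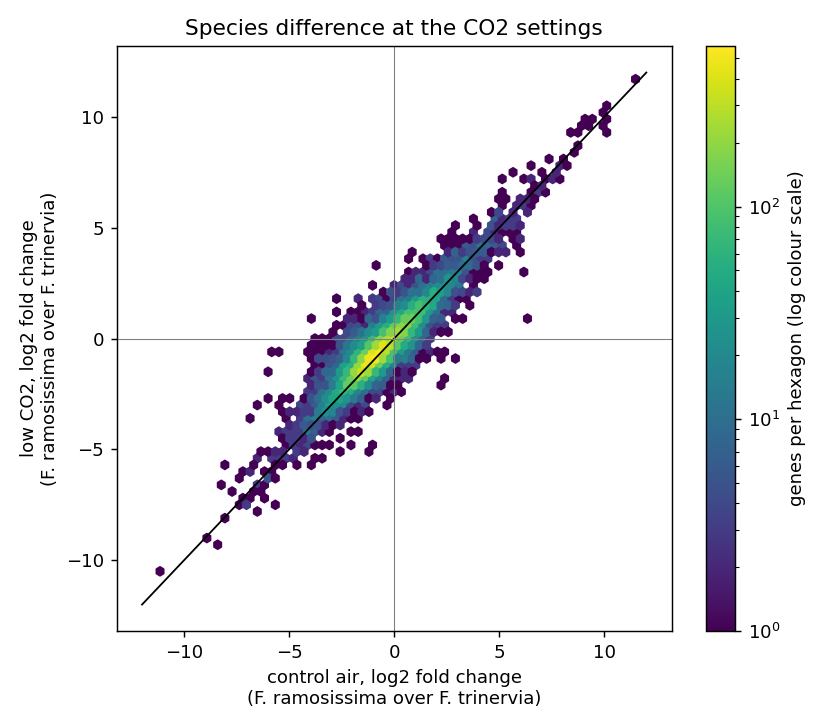
Log2 fold change of F. ramosissima over F. trinervia at low CO2 (vertical axis) against that in control air (horizontal axis) for the 13936 member genes, on the log2(TPM + 1) scale with 3 libraries per group. Colour gives the number of genes per hexagon on a log scale and the diagonal marks equal differences. The genes lie along the diagonal, with a Pearson's r of 0.917 across genes.

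The 4 numbered genes all kept their direction at low CO2. Gene00282 had 3926, 2236 and 3120 TPM in F. ramosissima, against 7.68, 3.82 and 2.26 TPM in F. trinervia (log2 fold change 9.19, limma, SE 0.377, adjusted p = 2.44e-06). Gene17659 had 26264, 14802 and 20349 TPM in F. ramosissima, against 8894, 6257 and 10171 TPM in F. trinervia (log2 fold change 1.27, limma, SE 0.258, adjusted p = 0.00380). F. ramosissima stayed above F. trinervia in every library for both genes.

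Gene19303 had 1.24, 0 and 0.53 TPM in F. ramosissima at low CO2, against 1026, 1273 and 793 TPM in F. trinervia (log2 fold change -9.39, limma, SE 0.328, adjusted p = 1.31e-06). For Gene00137 the values were 2530, 1882 and 2068 TPM in F. ramosissima, against 30396, 31321 and 46288 TPM in F. trinervia (log2 fold change -4.04, limma, SE 0.208, adjusted p = 5.90e-06). The gap in Gene00137 was wider than in control air by 0.93 on the log2 scale, a change that did not pass the test (limma, SE 0.365, adjusted p = 0.314). For Gene00282, Gene19303 and Gene17659 the changes of -0.77, -0.98 and -0.64 did not pass it either (limma adjusted p = 0.714, 0.709 and 0.460). After median-of-ratios scaling the low CO2 fold changes were 9.88 for Gene00282, 2.05 for Gene17659, -8.82 for Gene19303 and -3.26 for Gene00137 on the log2 scale, all 4 still called.

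Whether the species difference itself changed with CO2 was tested for all members in one limma model over 12 libraries. It changed for 74 genes (0.531%), with 52 (0.373%) shifted towards F. ramosissima at low CO2 and 22 (0.158%) towards F. trinervia. An unadjusted limma p below 0.05 was found for 1751 of the 13936 members. Part of these would pass that limit with no change at all, so they are not read as changed. Of the 74 genes, 67 had been called in control air. The difference had the opposite sign at low CO2 for 34 of them, was smaller for 31 and was larger for 9. F. trinervia moved more than F. ramosissima between the CO2 settings for 64 of the 74 genes, and for 48 of those its level was lower at low CO2. The same libraries chose the 74 genes, and the share over all members is not at hand. These values therefore describe the 74 genes only and are not read as a response of F. trinervia. The number of genes called for a change was 83 after median-of-ratios scaling, but single libraries moved it widely. Without F. trinervia low CO2 replicate 2 it was 706, a set that held all 74 genes, and without F. trinervia control replicate 2 it was 229. It fell to 11 and 20 without F. ramosissima low CO2 replicates 3 and 2, to 18 without F. trinervia low CO2 replicate 3 and to 22 without F. trinervia control replicate 1. Without F. ramosissima low CO2 replicate 1 it was 47, without F. ramosissima control replicates 1, 2 and 3 it was 41, 33 and 46, and without F. trinervia control replicate 3 it was 45.

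Last, the control levels of F. sonorensis and F. robusta were placed beside those of F. ramosissima and F. trinervia, which shows on which side of the pair the other species lie. This is a description with no test, since the calls and the positions use the same libraries. Of the 7832 genes lower in F. ramosissima, F. robusta lay above both species for 34.0%, between them for 42.8% and below both for 23.2%. Of the 2408 genes higher in F. ramosissima, F. robusta lay above both for 26.5%, between them for 32.1% and below both for 41.4%. Over all members the shares were 36.1%, 32.5% and 31.4%. F. robusta fell outside the pair for more than 50% of genes in each set, all members included, so this is not read as a result about the called genes. For the lower genes and over all members, which outside position was the larger changed with the scaling. For the higher genes it did not, and F. robusta lay above both for 17.5% and below both for 43.2% after median-of-ratios scaling. After median-of-ratios scaling, with the genes called under it, F. robusta lay above both for 27.8% and below both for 33.4% of the lower genes, and over all members for 28.7% and 42.2%.

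Nearness of F. robusta and F. sonorensis to either species was then counted under both scalings, each with its own calls, so that the gene sets change along with the scaling. In deposited TPM, F. robusta was nearer to F. ramosissima on the log2(TPM + 1) scale for 41.7% of the higher and 41.0% of the lower genes, against 42.3% of all members. After median-of-ratios scaling it was nearer to F. ramosissima for 33.8% of the higher and 51.9% of the lower genes, against 44.7% of all members. F. sonorensis was nearer to F. ramosissima for 50.6% of the higher and 28.4% of the lower genes in deposited TPM, against 36.1% of all members. After scaling these shares were 30.1% and 53.2%, against 44.2% of all members. For F. sonorensis the order of the higher and the lower genes in this share thus differed between the scalings. For F. robusta the higher and the lower genes were nearly equal in deposited TPM, both close to all members. After scaling its share was larger for the lower genes.

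Rows at 0 take part in these positions. F. sonorensis was listed at 0 in all 3 controls for 25.8% of the higher and 14.9% of the lower genes, against 16.8% of all members. F. robusta was listed at 0 for 18.0% and 11.01%, against 12.2% of all members.

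**Figure D5:**
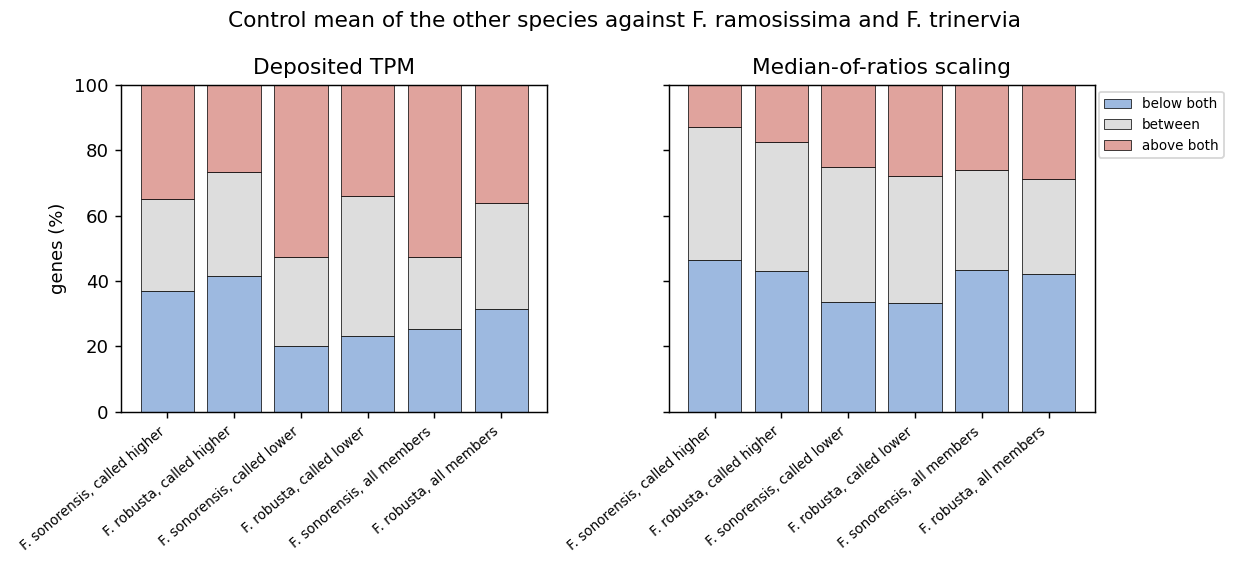
Percent of genes for which the control mean of F. sonorensis or F. robusta lies below both, between, or above both of the means of F. ramosissima and F. trinervia, for genes called higher in F. ramosissima, called lower, and all 13936 members, in deposited TPM (left) and after median-of-ratios scaling with its own calls (right). In deposited TPM F. sonorensis lies above both for 52.5% of the lower genes and F. robusta for 34.0%, against 52.6% and 36.1% of all members. After scaling these shares are 25.1% and 27.8%, against 25.9% and 28.7% of all members. The lower genes thus lie close to all members in this share, and it is not read as a result about them.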

How the data were processed

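Total leaf RNA was sequenced as Illumina paired reads of 150 bp. The authors deposited 1 table of TPM with a column for each of 24 libraries, each matched to its sample by the description in the labels. The submitters' processing notes name RSEM, with no version. Not given in the sources used here: aligner, genome builds, and the rule that put genes of different species on 1 row. The deposited TPM of a library add up to 857693 to 930239, below the full TPM total. TPM keep no depth, so read numbers are unknown and errors come from the spread between 3 libraries per group.

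Log2(TPM + 1) of the members was compared by limma 3.58.1 in R 4.3.3 (trend in the prior spread, Benjamini-Hochberg adjustment over all members, called below 0.05) in the 6 control libraries, the 6 low CO2 libraries, and all 12 for the change with CO2. Differences are F. ramosissima minus F. trinervia and understate the change of low genes. Single values had exact permutation tests. The scripts were tested on simulated data. Highest within-group Spearman correlation was 0.981 and at most 0.0954% of values of 10 TPM or more were identical between replicates, so no library was counted as a repeat of another.

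The alternatives were median-of-ratios scaling, rescaling without the 100 most abundant genes, quantile normalization, a pseudocount of 0.1, other filters, priors and weights, a replicate block, one spread over 24 libraries, and leaving out each library in turn. Leaving out single libraries in the test of the change with CO2, other than F. trinervia low CO2 replicate 2, was added after seeing the data. Row numbers are printed for 4 genes. Among members called in the same direction under both scalings, without overlap and averaging 1 TPM or more in both species, these have the highest and lowest log2 fold change and the largest positive and negative TPM difference. The 10 first genes of these rankings among all called members are described without number. The members and the rules were chosen with earlier results of these data known. Plots were made with matplotlib 3.10.9 in Python 3.11.15.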

Additional observations from a re-analysis of the deposited data

Results flagged for a closer look

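The difference between F. ramosissima and F. trinervia changed with CO2, by a test of the change itself, for 74 of 13936 genes. The changes in log2 difference, low CO2 minus control air, ran from -5.35 to 5.10 with a median of 1.94.

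Rows outside the comparison also held transcripts. Rows at 0 in all 3 F. trinervia controls held 14.98% ± 0.259 (SD, n = 3) of the TPM of F. ramosissima controls, and 4128 of these rows had a mean of at least 1 TPM there. Rows at 0 in all 3 F. ramosissima controls held 4.15% ± 0.173 (SD, n = 3) of the TPM of F. trinervia controls, with 679 rows at that level.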

How the results depend on the processing

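The number of genes called between the species in control air stayed within 1.5 times the reported 10240 under all alternatives run, and was 9138 to 9804 when 1 library was left out. The numbers by direction did not. F. ramosissima was higher for 4522 and lower for 4341 genes under median-of-ratios scaling, and higher for 4001 and lower for 4871 under quantile normalization, which both remove most of the median shift by construction. Leaving out 1 library gave 2063 to 2401 higher and 7028 to 7596 lower genes. The median log2 difference, -0.72 as reported, was -0.022 under median-of-ratios scaling, -0.13 under quantile normalization, -0.91 with a pseudocount of 0.1, -0.53 with no filter on low values and -0.81 with a minimum mean TPM of 5, and -0.77 to -0.69 with 1 library left out. The 4 numbered genes kept their direction and call in all 18 alternatives each, at limma adjusted p values of at most 0.000459. They were chosen among genes called in the same direction under median-of-ratios scaling, so that alternative was passed by the choice itself. The other alternatives compare the same control libraries in which the genes were picked as extremes. Their outcome was thus largely set by the choice and is no independent test. The change of the species difference with CO2 was called for 129 genes with a replicate block and for 11 to 706 genes with 1 library left out, against 74 as reported. Same-numbered control libraries of the species had correlations of their deviations of -0.11, 0.21 and 0.22. Control libraries of unlike number had -0.28 to 0.15. So few values cannot decide whether same-numbered libraries share more than a number. The block gave 10413 calls in control air. The number of reads is unknown, so what depth limits cannot be given.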
